A study of Caenorhabditis elegans with 9 samples.

Results

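Of the genes for microtubules and the motors that move on them, 6 are described here in sorted VA motor neurons of Caenorhabditis elegans. These are the tubulin genes mec-12 and mec-7, the motor adaptor gene jip-1, the dynein regulator gene lis-1 and the kinesin genes klp-7 and klp-20. They were taken by symbol from the authors' table that compares wild type VA neurons with whole worms, and all 6 were found among its 2349 genes. That table holds only genes the authors called higher in VA neurons, with a fold of at least 2.25 and an FDR p-value under 0.05. A higher level in VA neurons was therefore a condition for being listed, and the tests below are not independent evidence of it.

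The study profiled larvae of the second stage (L2) in 3 groups of 3 libraries. Wild type VA neurons came from a strain with pUnc-4::mCherry and pUnc-4C::GFP reporters and were sorted as cells that were red only, a gate that also takes AVF neurons. The unc-4 VA neurons were sorted in the same way and carry the same strain label, with the allele not given in the sources used here. UNC-4 is the homeodomain factor whose promoter drives these reporters. Whole worms were of the N2 strain without reporters and were frozen whole in place of being dissociated and sorted. Strain and handling therefore changed together with the cells that were sampled. The labels do not state whether replicates are separate cultures, and the p-values reflect the variation among these libraries, part of which may be technical.

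Microtubules are polymers of alpha- and beta-tubulin pairs, and animals carry several genes, or isotypes, for each subunit. Kinesins are motors that mostly walk toward the growing end of the microtubule, dynein walks the other way, and adaptors tie cargo to either. In motor neurons this system carries synaptic vesicle precursors and mitochondria between the cell body and the synapses. In C. elegans, mec-12 and mec-7 are best known for the thick microtubules of the touch receptor neurons, and the kinesin-II motor that contains KLP-20 for transport in sensory cilia.

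For cholinergic cord motor neurons 8 of 8 markers were listed, with a median ratio of mean TPM of 48.5. As a whole, 11.6% of annotated protein-coding genes were listed. The marker unc-4 is among the 8, and its promoter drives the reporters used for sorting, so its listing is not independent of the gate. Of 5 muscle markers the attachment genes unc-97 (97.4 ± 12.5 against 48.6 ± 4.40 TPM, SD, n = 3 each) and pat-3 (25.6 ± 3.52 against 13.1 ± 3.28 TPM) were listed too, summing to 111 to 136 TPM in VA libraries and 53.9 to 68.0 TPM in whole worms. The muscle myosin genes myo-3 and unc-54 and the paramyosin gene unc-15 were not listed, nor was any of 4 intestine markers. The part of muscle RNA in the results below was not tested. Heat shock genes of the list used here, 11 of them in the table, accounted for 5.22%, 32.6% and 1.90% of the total in VA replicates 1, 2 and 3, compared with 0.110% to 0.310% in whole worms. TPM shares a fixed total, so VA replicate 2 stands apart on this measure. It was the lowest VA library for 41.6% of all listed genes, and for 5 of the 6 genes described here. TPM values were also recomputed with those 11 heat shock genes taken out of the total, which raised the median log2 ratio of all listed genes by 0.24. The 6 genes together held 1.05%, 0.460% and 0.766% of the total in VA replicates 1 to 3 and 0.0524% to 0.0746% in whole worms.

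Of the 6 genes, the alpha-tubulin gene mec-12 was the most abundant, and its ratio between VA neurons and whole worms was close to that of jip-1, the other high one. With all libraries the ratio of mec-12 was above that of jip-1 (15.3 and 14.5), without VA replicate 1 (12.5 and 14.1) or without whole-worm replicate 3 (15.4 and 15.8) below it, so these ratios have no fixed order. It encodes an alpha-tubulin isotype that, in touch neurons, is acetylated. The gene (WBGene00003175) lies on chromosome III from 3131574 to 3139234 on the minus strand of WBcel235 and has 5 exons. It read 9207, 4067 and 6851 TPM in VA replicates 1, 2 and 3 and 520.0, 438 and 354 TPM in whole-worm replicates 2, 3 and 4. Every VA library lay far above every whole-worm library, and VA replicate 2 was the lowest of its group. VA neurons averaged 6708 ± 2573 TPM (SD, n = 3) and whole worms 437 ± 83.1 TPM (SD, n = 3), a ratio of 15.3. By mean VA level mec-12 was 9th among the 2349 listed genes, and by mean whole-worm level 12th. The log2(TPM + 1) difference was 3.88 ± 0.47 (SE), with an adjusted p of 2.1e-05 by limma. In bulk libraries a larger share of expressing cells and more RNA per cell cannot be told apart. An exon of Y53G8B.1 on the opposite strand covers 76 of the 1612 exonic bases of mec-12, and how the authors' counting used strand is not given, so reads from that stretch are uncertain.

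The beta-tubulin gene mec-7 was the next most abundant of the 6 and had the lowest ratio. MEC-7 is the partner of MEC-12 in touch neuron microtubules. The gene (WBGene00003171) lies on chromosome X from 7774856 to 7776689 on the minus strand, with 5 exons and no overlapping gene in the annotation. It read 1020.3, 351 and 533 TPM in VA replicates 1 to 3 and 192, 166 and 139 TPM in whole-worm replicates 2 to 4. The groups did not overlap, and VA replicate 1 stood well above the other VA libraries. The means were 635 ± 346 TPM (SD, n = 3) and 166 ± 26.8 TPM (SD, n = 3), a ratio of 3.83, which was above that of 37.3% of listed genes. The difference on log2(TPM + 1) was 1.80 ± 0.43 (SE, adjusted p = 0.0023 by limma). Of the 6 genes mec-7 varied most among VA libraries, with an SD of 54.5% of its mean against a median of 37.4% over all listed genes.

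**Figure D1:**
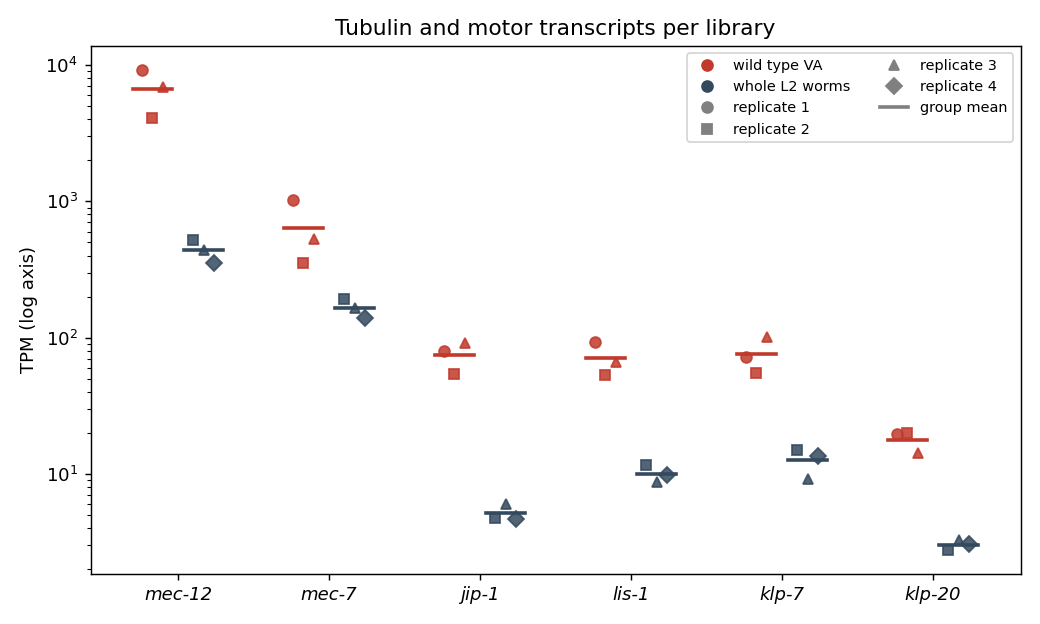
TPM per library (log axis) of the 6 genes, with red points for the 3 wild type VA libraries, dark points for the 3 whole-worm libraries, point shapes for replicate numbers and bars for group means. In each gene the lowest VA library lies above the highest whole-worm library, and mec-7 has the smallest gap, 351 against 192 TPM.

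Within each VA library, mec-12 stood further above mec-7 than within any whole-worm library. The ratio of mec-12 to mec-7 TPM within a library, which no rescaling of the library total can change, was 9.02, 11.6 and 12.9 in VA replicates 1 to 3. It was 2.70, 2.64 and 2.55 in whole-worm replicates 2 to 4. The groups were separate, with a difference of means of 8.52 (2-sided exact permutation test, p = 0.10, adjusted p = 0.15 over 6 such quantities). At 3 against 3 libraries 0.10 is the smallest p this test can give, so it cannot pass a threshold of 0.05. Both genes come from a table selected on the same contrast, and the test was chosen after the values were seen. The ratio and its test are therefore not independent of that selection. How reads shared between tubulin isotypes were placed is not given, so the ratio itself is uncertain.

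Other tubulin isotypes were listed as well. Of 9 alpha-tubulin genes, mec-12, tba-1 and tba-2 were listed, and of 6 beta-tubulin genes mec-7, tbb-2 and ben-1, while the gamma-tubulin gene tbg-1 was not. The table lists 11.6% of the annotated protein-coding genes as a whole. The broadly expressed isotypes tba-1 and tba-2 averaged 1074 ± 201 and 565 ± 177 TPM (SD, n = 3) in VA neurons against 178 ± 32.5 and 225 ± 32.8 TPM (SD, n = 3) in whole worms. The beta-tubulin tbb-2 was more abundant than mec-7 in every library, with 1545 ± 271 against 487 ± 25.4 TPM. The highest ratio of any listed tubulin, 23.8, belonged to ben-1, the beta-tubulin that confers sensitivity to the drug benomyl. Its VA replicates 1 to 3 read 200.4, 156 and 92.5 TPM, and its whole-worm replicates 2 to 4 read 8.54, 5.83 and 4.50 TPM. Tubulin isotypes are similar in sequence, and how the authors' counting placed reads shared between them is not given, so the split between isotypes is uncertain.

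Shares within the listed isotypes were separate between the groups for mec-12 and overlapped for mec-7. Of the summed TPM of the 3 listed alpha-tubulins, mec-12 made up 83.1%, 75.9% and 79.6% in VA replicates 1 to 3 and 52.9%, 56.8% and 46.1% in whole-worm replicates 2 to 4. These shares did not overlap (exact permutation p = 0.10, adjusted p = 0.15). Among the 3 listed beta-tubulins, mec-7 made up 33.6%, 19.7% and 24.5% in VA replicates 1 to 3. Its share in whole-worm replicates 2 to 4 was 27.2%, 26.4% and 21.7%, so the groups overlapped (difference of means 0.876 percentage points, exact permutation p = 1). The share of ben-1 was 6.54% ± 2.25 (SD, n = 3) in VA neurons and 0.946% ± 0.254 (SD, n = 3) in whole worms. The sum of the listed alpha-tubulins was 3.65, 3.01 and 3.97 times that of the listed beta-tubulins in VA replicates 1 to 3, and between 1.20 and 1.39 times in whole worms (exact permutation p = 0.10, adjusted p = 0.15). Isotypes that are not listed have no values here, so these sums are not the whole tubulin pool. A higher level in VA neurons was the condition for listing, so the same contrast chose the isotypes in the sums. The shares, the sums and their tests are therefore not independent of that selection.

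**Figure D2:**
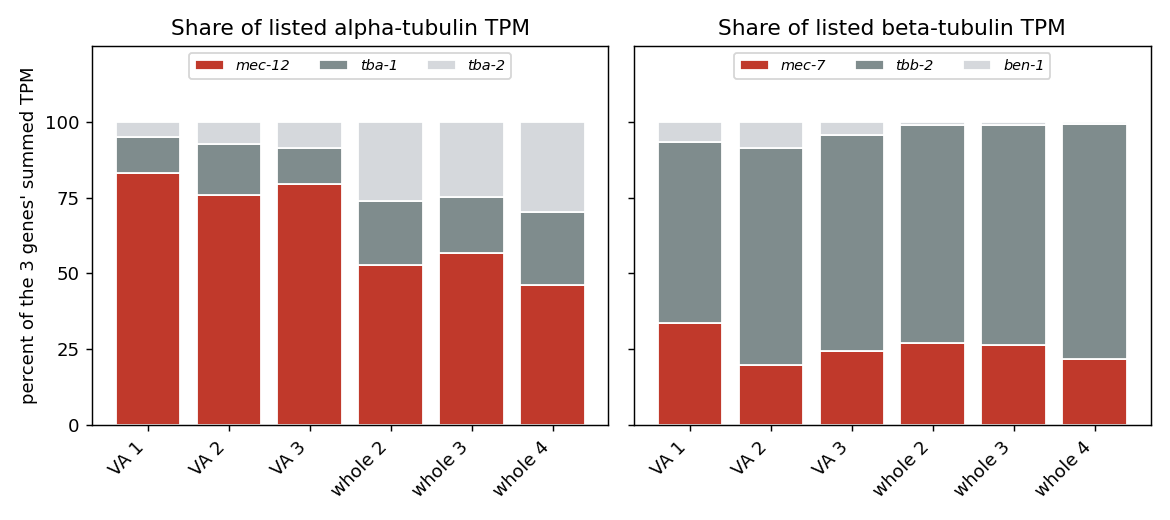
Stacked bars give the percent of the summed TPM of the 3 listed alpha-tubulin genes (left) and the 3 listed beta-tubulin genes (right) in each VA and whole-worm library. The mec-12 share lies between 75.9% and 83.1% in VA libraries and between 46.1% and 56.8% in whole worms, while the mec-7 shares of the groups overlap.

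Since mec-12 and mec-7 are best known from touch neurons, the other genes of the touch neuron marker list stand beside them. Of 11 touch neuron markers 4 were listed, beside 11.6% of all annotated protein-coding genes. They were both tubulins, the stomatin-like gene mec-2 and the channel chaperone gene mec-6. Both tubulins were taken from the table by symbol, so their listing was given in advance. Together mec-2 and mec-6 summed to between 126 and 272 TPM in VA libraries and between 16.5 and 21.9 TPM in whole worms. The touch neuron homeobox gene mec-3, the channel genes mec-4 and mec-10, the tubulin acetyltransferase gene mec-17, and mec-9, mec-14 and mec-18 were not listed, so no value is at hand for them. The part of touch neuron RNA in the tubulin levels was not tested.

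The motor adaptor gene jip-1 had a ratio close to that of mec-12 at a far lower level. It is the C. elegans homologue of mammalian scaffold proteins that bind conventional kinesin and kinases of the JNK pathway. The gene (WBGene00002176) lies on chromosome II from 1326989 to 1350132 on the plus strand, with 6 annotated transcripts of 9 to 19 exons. Antisense non-coding RNAs overlap 68 and 21 of its 3115 exonic bases. It read 79.3, 53.7 and 91.1 TPM in VA replicates 1 to 3 and 4.77, 5.95 and 4.67 TPM in whole-worm replicates 2 to 4. Every VA library was far above every whole-worm library. The means were 74.7 ± 19.1 TPM (SD, n = 3) and 5.13 ± 0.713 TPM (SD, n = 3), a ratio of 14.5, above that of 80.4% of listed genes. The difference on log2(TPM + 1) was 3.60 ± 0.33 (SE, adjusted p = 2.9e-06 by limma). By mean level jip-1 was 636th of the listed genes in VA neurons and 1351st in whole worms.

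Other genes of the motor adaptor list and of conventional kinesin were listed too. Of 16 genes of the adaptor list 11 were listed, beside 11.6% of all annotated protein-coding genes. Their median ratio was 6.30. The list includes jip-1 and was chosen with earlier results of these data known, so the count is not independent evidence. The kinase gene jnk-1 had the highest ratio of the list, 16.7, at 197 ± 44.7 against 11.8 ± 1.16 TPM (SD, n = 3 each). The scaffold gene unc-16, a homologue of another mammalian JIP protein, averaged 117 ± 25.2 against 31.4 ± 8.12 TPM, a ratio of 3.71. The kinesin-binding genes unc-76 and unc-14 had ratios of 10.8 and 3.40, and the kinase gene unc-51 one of 10.1. The remaining listed genes of the list were unc-69, unc-33, syd-2, arl-8 and ric-7, with ratios from 1.99 for ric-7 to 6.89 for unc-69. Exons of jnk-1, unc-16, unc-76 and syd-2 overlap those of other protein-coding genes, so part of their reads is uncertain. The mitochondrial adaptor genes trak-1, miro-1 and mtx-2, as well as sam-4 and unc-44, were not listed. Of conventional kinesin, the light chain gene klc-2 was listed at 86.7 ± 28.8 against 22.2 ± 1.92 TPM, while the heavy chain gene unc-116 and the light chain gene klc-1 were not.

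The dynein regulator gene lis-1 was higher in every VA library than in any whole-worm library. LIS-1 is the homologue of the human lissencephaly protein, which binds dynein and keeps it on the microtubule. The gene (WBGene00003047) lies on chromosome III from 13371164 to 13376710 on the minus strand, with 10 exons and no overlapping gene. It read 92.7, 53.5 and 66.5 TPM in VA replicates 1 to 3 and 11.5, 8.75 and 9.87 TPM in whole-worm replicates 2 to 4. VA replicate 1 was the highest and replicate 2 the lowest. The means were 70.9 ± 19.9 TPM (SD, n = 3) and 10.05 ± 1.40 TPM (SD, n = 3), a ratio of 7.06. The difference on log2(TPM + 1) was 2.67 ± 0.33 (SE, adjusted p = 2.4e-05 by limma). The dynactin gene arp-1 had a ratio of 2.18, and the listing of lis-1 was given in advance. Of 29 genes for dynein, dynactin and their regulators, lis-1 and arp-1 were listed, beside 11.6% of all annotated protein-coding genes. The dynein heavy chain gene dhc-1, the dynactin genes dnc-1 to dnc-6 and the LIS-1 partner genes nud-1 and nud-2 were among the 27 that were not. A gene that is not listed was not called higher, which gives no level for it in VA neurons.

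The kinesin gene klp-7 encodes a kinesin of the family that does not walk but takes tubulin off microtubule ends. It (WBGene00002219) lies on chromosome III from 10805925 to 10811001 on the plus strand, with 2 annotated transcripts of 6 and 7 exons. It read 72.4, 54.9 and 100.6 TPM in VA replicates 1 to 3 and 14.97, 9.21 and 13.6 TPM in whole-worm replicates 2 to 4. All VA libraries were above all whole-worm libraries, and VA replicate 3 was the highest. The means were 75.96 ± 23.1 TPM (SD, n = 3) and 12.6 ± 3.01 TPM (SD, n = 3), a ratio of 6.04. On log2(TPM + 1) the difference was 2.48 ± 0.35 (SE, adjusted p = 6.2e-05 by limma). This kinesin also acts in cell division. Of 8 markers of dividing cells and germline none was listed, beside 11.6% of all annotated protein-coding genes, so they have no values here. The part of dividing cells in the klp-7 level was not tested.

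The kinesin-II subunit gene klp-20 was the lowest of the 6 genes. It (WBGene00002230) lies on chromosome III from 209992 to 230450 on the plus strand, with 4 annotated transcripts of 13 or 14 exons. It shares 70 of its 2271 exonic bases with F40G9.17 and 22 with hpo-38, both on the same strand and neither of them listed, so reads from these ends are uncertain. It read 19.5, 19.9 and 14.1 TPM in VA replicates 1 to 3 and 2.77, 3.25 and 3.04 TPM in whole-worm replicates 2 to 4. The groups were far apart, and here VA replicate 3, not 2, was the lowest. The means were 17.8 ± 3.25 TPM (SD, n = 3) and 3.02 ± 0.239 TPM (SD, n = 3), a ratio of 5.90. On log2(TPM + 1) the difference was 2.21 ± 0.33 (SE, adjusted p = 0.00010 by limma). Its SD was 18.2% of its mean in VA neurons, the smallest of the 6.

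All subunits of kinesin-II were listed. The other motor subunit gene klp-11 read 28.3, 26.2 and 16.6 TPM in VA replicates 1 to 3 and 10.5, 8.83 and 10.2 TPM in whole-worm replicates 2 to 4, a ratio of means of 2.41. The gene of the accessory subunit, kap-1, read 76.9, 50.7 and 26.7 TPM in VA and 10.6, 12.5 and 10.9 TPM in whole worms, a ratio of 4.53. The ratio of klp-20 to klp-11 within a library was 0.688, 0.761 and 0.847 in VA replicates 1 to 3 and 0.264, 0.368 and 0.299 in whole-worm replicates 2 to 4. The groups did not overlap (difference of means 0.455, exact permutation p = 0.10, adjusted p = 0.15), and 0.10 is the smallest p this test can give. The subunit genes come from a table selected on the same contrast, and the tests were chosen after the values were seen. Ratios between these subunits and their tests are therefore not independent of that selection. Exons of klp-11 overlap those of F20C5.11 on the same strand, so reads from that stretch are uncertain. The ratio of kap-1 to klp-20 ranged from 1.89 to 3.95 in VA libraries and from 3.58 to 3.86 in whole worms, which overlap (exact permutation p = 0.40, adjusted p = 0.48). Of 14 ciliated neuron markers the transcription factor gene daf-19 alone was listed, beside 11.6% of all annotated protein-coding genes. It read between 21.7 and 38.3 TPM in VA libraries and between 12.3 and 17.4 TPM in whole worms. The cilia motor genes osm-3, che-3 and xbx-1 and the transport genes osm-1, osm-5 and osm-6 were not listed. The part of ciliated cells in the klp-20 level was not tested.

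**Figure D3:**
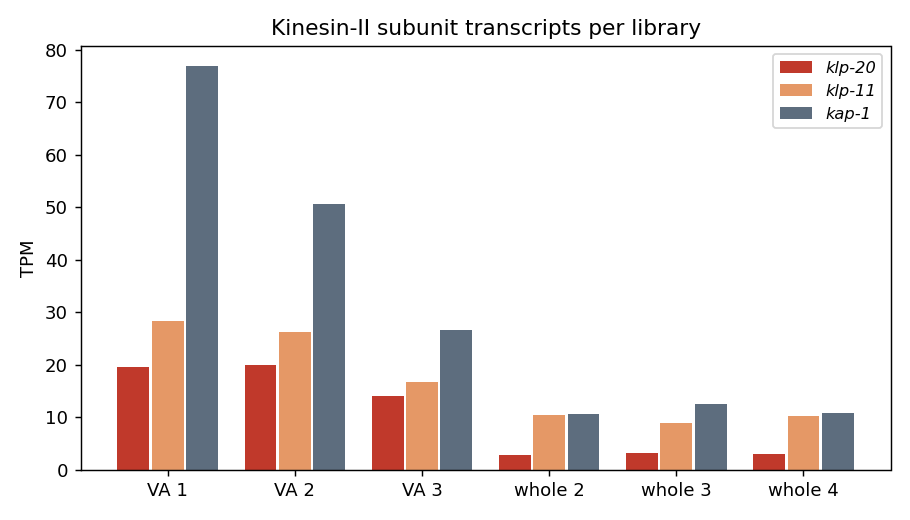
Bars give TPM of the kinesin-II subunit genes klp-20, klp-11 and kap-1 in each VA and whole-worm library. In whole worms klp-20 lies at 2.77 to 3.25 TPM, well under its partner klp-11 at 8.83 to 10.5 TPM. The ratio of klp-20 to klp-11 is 0.688 to 0.847 in VA libraries and 0.264 to 0.368 in whole worms. Their distance in TPM overlaps between the groups.

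In VA neurons the mean levels fell in the order mec-12, mec-7, klp-7, jip-1, lis-1 and klp-20. The ranges of klp-7, jip-1 and lis-1 overlapped, so these are not ordered beyond their spread, while mec-12, mec-7 and klp-20 were each separate from their neighbours. In whole worms the order was mec-12, mec-7, klp-7, lis-1, jip-1 and klp-20, with overlap between klp-7 and lis-1 alone. Thus jip-1 lay below every lis-1 value in whole worms and within the lis-1 range in all 3 VA libraries.

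All 6 genes passed the threshold of limma's test, and so did 95.1% of the listed genes tested. In all 6 the VA libraries lay above the whole-worm libraries, as in 91.9% of listed genes. Both shares follow from the selection of the table, so the counts say nothing particular of these genes. The median ratio of the 6 was 6.55, against 5.18 over all listed genes. The authors' deposited table gives mec-12 a fold of 20.2, jip-1 19.6, lis-1 9.30, klp-7 8.25, klp-20 7.90 and mec-7 4.94. These follow the order of the ratios of mean TPM and are 1.29 to 1.37 times as large, where the median over the table is 1.31 times. In the authors' deposited table the FDR p-value of mec-7 was the largest of the 6, at 3.9e-05.

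With the 11 heat shock genes out of the total, the spread among VA libraries narrowed for 5 of the 6 genes. The SD of jip-1 went from 25.6% to 7.89% of its mean and that of klp-7 from 30.4% to 16.03%, while that of mec-7 went from 54.5% to 44.1%. For klp-20 it widened from 18.2% to 35.6%, since VA replicate 2 then read 29.6 TPM against 20.6 and 14.4 TPM in replicates 1 and 3. On this scale VA replicate 2 was lowest for 3 of the 6 genes and for 21.5% of all listed genes. The ratio of mean TPM became 17.3 in mec-12, 16.6 in jip-1, 8.11 in lis-1, 7.11 in klp-20, 6.89 in klp-7 and 4.30 in mec-7, against a median of 6.10 over all listed genes. Thus mec-7 stayed under the median of the table and the other 5 genes above it on both scales.

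**Figure D4:**
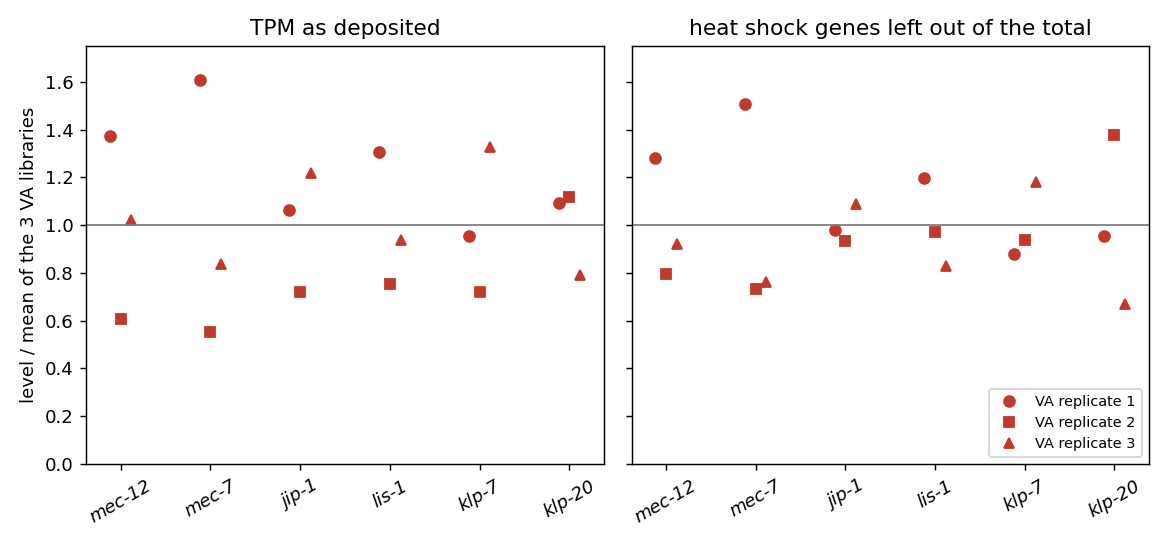
Level of each gene in the 3 VA libraries divided by the mean of those libraries, from TPM as deposited (left) and with the 11 heat shock genes of the list left out of the library total (right). On the left VA replicate 2 is lowest for 5 genes, and on the right it is the highest library for klp-20.

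Over the whole microtubule system, 38 of 114 genes of the lists were listed, or 33.3%, beside 11.6% of all annotated protein-coding genes. The 38 include the 6 genes, which were taken from this table, and the lists were chosen with earlier results of these data known. The difference between these percentages is therefore not independent evidence. Their median ratio was 4.30, against 5.18 for all listed genes. Among the 32 that are not described above as one of the 6, ratios ran from 1.84 for the kinesin gene klp-3 to 23.8 for ben-1, and 31 passed limma's test. Kinesins were listed in 5 of 19 cases, the others being klp-3, klp-11 and the synaptic vesicle precursor motor unc-104 at 103 ± 40.6 against 20.3 ± 1.93 TPM (SD, n = 3 each). The table held 10 of 20 microtubule-binding genes, led by the CLASP-type gene cls-3 with a ratio of 13.3, and including the tau-like gene ptl-1 with 4.06 and the minus-end gene ptrn-1 with 3.46. Of 11 tubulin modification genes 2 were listed. The acetyltransferase gene atat-2, whose exons overlap those of hog-1 on the opposite strand, averaged 58.2 ± 30.7 against 7.27 ± 1.34 TPM. Exons of klp-3 and ptl-1 also overlap those of other protein-coding genes. The tubulin ligase-like gene ttll-12 read 83.5, 352 and 14.9 TPM in VA replicates 1 to 3 and 31.3, 25.9 and 23.6 TPM in whole-worm replicates 2 to 4. It was the 1 listed gene of these lists that missed limma's threshold (adjusted p = 0.096 by limma) and whose groups overlapped, and it was highest in the VA library with 32.6% heat shock TPM, a link that was not tested.

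**Figure D5:**
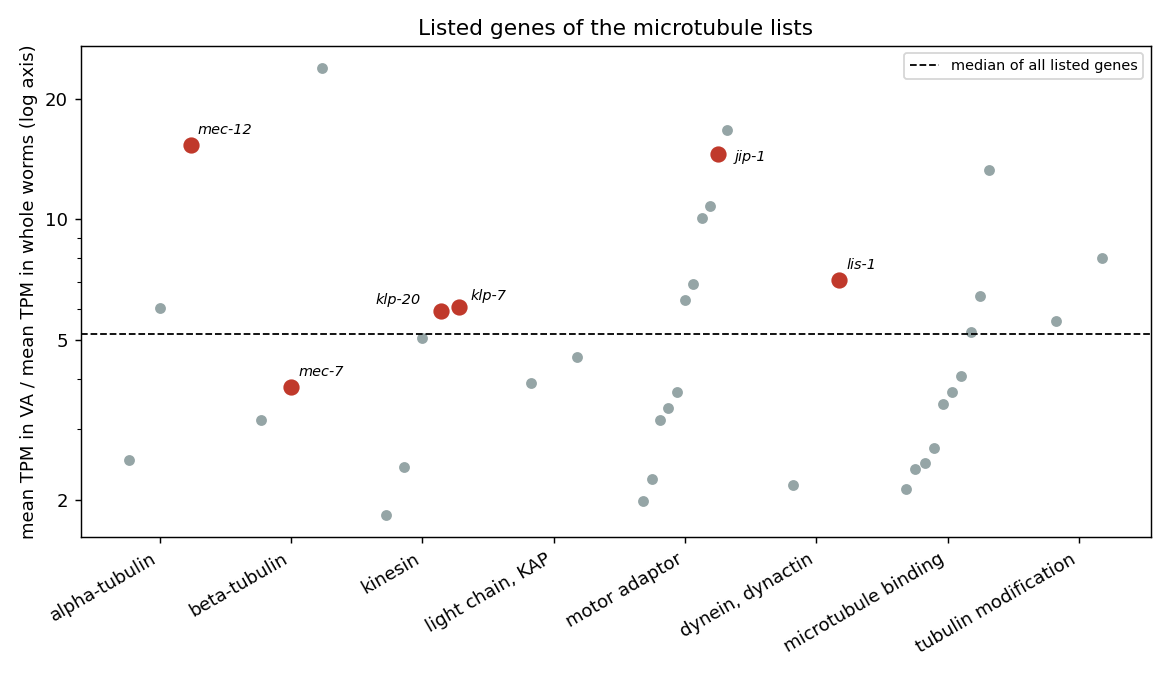
Ratio of mean TPM in VA neurons to that in whole worms (log axis) for the 38 listed genes of the microtubule lists, 1 point per gene, with the 6 described genes in red and the dashed line at the median of all listed genes, 5.18. Of the red points mec-7 alone lies under the line, and ben-1, the topmost grey point, lies above all of them.

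Among listed genes with a VA mean of at least 5 TPM, those with the most similar pattern to each of the 6 genes were sought over the 6 libraries, by the root mean square difference of log2(TPM + 1) after each gene's mean was taken off. The closest to lis-1 were swsn-1, a chromatin remodelling gene, and lin-39, a Hox gene, at 0.0712 and 0.0737 log2 units, followed by dkf-2. The closest to klp-20 was M02E1.1 at 0.0921, followed by C17E4.10 and dyc-1. For jip-1 they were glb-15 at 0.147, F32B5.7 and lgc-37, and for mec-12 lgc-38 at 0.163, npr-23 and calf-1. The closest to mec-7 was the potassium channel gene shl-1 at 0.151, followed by pmp-3 and egl-2. For klp-7 they were unc-33 at 0.171, C36A4.5, now named maph-1.3, and srx-17. The pseudocount draws low values together, so likeness on this scale can hold between unlike ratios of mean TPM. That ratio was 32.4 for srx-17, at a whole-worm mean of 0.211 TPM, beside 6.04 for klp-7, and 7.36 for egl-2 beside 3.83 for mec-7. None of the 6 genes was among the 3 closest to another of them, and the closest pair among them was mec-12 and jip-1 at 0.305.

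The authors' table of 214 genes raised in the mutant held none of the 6 genes, so their levels in the mutant are not analysed here. Of the 114 genes of the microtubule lists 1 was listed there, beside 1.07% of annotated protein-coding genes. This was vab-8, which encodes a kinesin-like protein needed for posteriorly directed cell and axon migration. It read 172, 206 and 353 TPM in unc-4 replicates 1 to 3, while wild type replicates 1 to 3 read 28.7, 44.2 and 16.1 TPM. Every mutant library was above every wild type library, as in 70.1% of the genes of that table. The means were 244 ± 95.9 and 29.7 ± 14.1 TPM (SD, n = 3 each), a ratio of 8.22, and leaving out 1 library at a time gave 6.38 to 10.9. The authors' deposited table gives a fold of 7.27 with an FDR p-value of 0.000197, and vab-8 was not listed in the comparison with whole worms.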

How the data were processed

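Transcript levels were taken from the tables that the authors deposited, which per the file headers hold a TPM value for every library, the authors' linear fold and their FDR p-value. TPM is scaled by transcript length and library total. Depth is therefore unknown, and counting error cannot be stated. The submitters' processing notes name WBcel235 as the build. Not given in the sources used here are the aligner, how reads were counted, whether strand was used and how the FDR was obtained.

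The tables hold only genes called higher. From the table of unc-4 neurons, 2 lines without a gene were dropped. The members and all gene lists were chosen with earlier results of these data known. Lists were matched by gene identifier, and 2 kinesin names that matched no current gene were dropped. The report names the 6 genes of its subject, listed genes of these lists, and for each of the 6 genes the 3 genes of the most similar pattern among those with a VA mean of at least 5 TPM.

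The 3 wild type VA and 3 whole-worm libraries were compared on log2(TPM + 1) by limma (version 3.58.1, R version 4.3.3) with its trend option. All listed genes whose mean reached 1 TPM in one of the groups entered, p-values were adjusted by Benjamini-Hochberg, and the threshold was 0.05. The fit was tried on simulated data in which only part of the genes were changed, by known folds. That setting differs from these data, where the authors had called every listed gene higher. Ratios and shares within a library were compared by 2-sided exact permutation tests, chosen after the values were seen. Alternatives were pseudocounts of 0.1 and 0.5, no filter, leaving out each library, a replicate block, and TPM rescaled without heat shock genes. Gene positions come from the Ensembl release 115 annotation of the same build. Promoter motifs were not searched, since no genome sequence was used here.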

Additional observations from a re-analysis of the deposited data

How the results depend on the processing

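All 6 genes stayed higher in VA neurons and past the threshold of limma's test with a pseudocount of 0.1 or 0.5, with no filter on low values, with heat shock genes out of the total, with a replicate block and with any single library left out. Over the whole table, between 1899 and 2247 genes passed with a library left out, against 2214 with all libraries. The adjusted p nearest to the threshold was that of mec-7 under the replicate block (0.046, limma, log2 difference 1.27 ± 0.59 SE), and with a library left out the highest was also that of mec-7 (adjusted p = 0.013). The block used the replicate number, which VA and whole-worm libraries share for replicates 2 and 3. The block fit compares the groups through these replicates alone and leans on the variance that limma pools over genes. It is therefore a weak check. Deviations of same-numbered libraries from their group means correlated at 0.0682 and -0.0137 over genes, so the number was not taken to pair the samples, and the block fit passed 1597 genes. With a library left out, the ratio of mean TPM lay between 12.5 and 18.4 for mec-12, 2.67 and 4.69 for mec-7, 12.95 and 16.6 for jip-1, 5.97 and 7.92 for lis-1, 5.06 and 6.88 for klp-7, and 5.56 and 6.52 for klp-20. With heat shock genes out of the total the ratio of klp-20 was 7.11, against 5.90 as deposited. Of the 38 listed microtubule genes, 35 had an authors' FDR under 0.01. The depth of the libraries is unknown, so counting error behind the lower values, such as klp-20 in whole worms, is unknown as well.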
